A study of Mus musculus with 2 samples.

Results

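Of 22180 genes measured on the arrays by a probe set with a single gene symbol, 10 genes of myeloid lineage priming are described here, namely Mpo, Elane, Prtn3, Ctsg, Csf3r, Csf1r, Cebpa, Cebpe, Spi1 and Irf8. They were chosen by name, and the rule uses no measured value. They are covered by 11 of the 34365 probe sets, 1 for each gene except Irf8, which has 2. Their levels in Pot1a-transduced long-term hematopoietic stem cells (LT-HSCs) lay close to those in control cells, with log2 differences, Pot1a minus control, between -0.37 for Csf1r and 0.23 for Cebpa. Of the 10 genes, 8 were higher and 2 lower in the Pot1a array, with a median log2 difference of 0.082, and none of them differed by 1.5-fold. Csf3r, Prtn3 and Spi1 lay above the median of all genes on both arrays, whereas Mpo, Elane, Ctsg, Csf1r, Cebpe and Irf8 lay below the median of all genes on both.

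RNA came from bone marrow LT-HSCs of C57BL/6J male mice with an age of 10 weeks, sorted as lineage-, sca-1+, cKit+, CD48- and CD150+ cells. In both groups 1 day of pre-culture in SFO3 medium with stem cell factor and thrombopoietin at 100 ng/mL each was followed by exposure to a retrovirus, 3 days of culture and a second sort for GFP+ LT-HSCs. The control group received the mock retrovirus, which in the study carries GFP alone, and the Pot1a group received a retrovirus with full-length wild-type Pot1a, a telomere-binding protein of the shelterin complex, expressed from the retroviral vector beside GFP. Each group is 1 Affymetrix array, so the differences below have no replicate error, a test between groups could not be made, and differences between the conditions cannot be told apart from differences between the 2 cultures, RNA samples or arrays. The labels do not say how many mice or cultures went into each RNA sample.

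Stem cells of the bone marrow carry low levels of transcripts typical of single blood lineages before they commit to any of them, a state known as lineage priming. In the myeloid branch the transcription factors PU.1 (encoded by Spi1) and C/EBPα (encoded by Cebpa) open the program, C/EBPε and IRF8 then act in granulocytes and in monocytes and dendritic cells respectively, and the receptors for granulocyte and macrophage colony-stimulating factor receive the lineage cytokines. Myeloperoxidase, neutrophil elastase, proteinase 3 and cathepsin G are made at the promyelocyte stage and stored in the primary granules of neutrophils.

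The stretch upstream of the transcription start was taken from RefSeq (build GRCm38.p6) for the genes with an entry, because PU.1 is known to act on promoters of this kind in myeloid cells. It was found for 7 of the 10 genes, in 8 windows of 250 bases, since Irf8 has 2 annotated starts, and Csf1r, Cebpe and Spi1 had no window. Each window was searched on both strands for GAGGAA (PU.1-like), TTGCNNAA (C/EBP-like), TGTGGT (RUNX-like) and AACNG (MYB-like), where N is any base. The windows with a GAGGAA are shown 5′ to 3′ in the direction of transcription, for Mpo (chr11:87793534-87793783, plus strand), Elane (chr10:79886062-79886311, plus strand), Prtn3 (chr10:79879417-79879666, plus strand), Ctsg (chr14:56102575-56102824, minus strand) and Csf3r (chr4:126024409-126024658, plus strand). Capitals mark matches to the PU.1-like and RUNX-like letters, and MYB-like matches stay in lower case.
Mpo: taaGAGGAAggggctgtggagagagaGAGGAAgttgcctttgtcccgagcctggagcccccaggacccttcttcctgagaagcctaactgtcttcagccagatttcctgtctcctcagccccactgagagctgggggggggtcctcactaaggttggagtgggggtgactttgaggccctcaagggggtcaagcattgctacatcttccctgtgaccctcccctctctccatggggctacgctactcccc
Elane: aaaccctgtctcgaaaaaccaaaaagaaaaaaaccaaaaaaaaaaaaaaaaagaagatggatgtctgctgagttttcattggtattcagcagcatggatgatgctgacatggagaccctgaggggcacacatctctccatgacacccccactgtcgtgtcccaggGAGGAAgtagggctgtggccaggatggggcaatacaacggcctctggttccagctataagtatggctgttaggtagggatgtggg
Prtn3: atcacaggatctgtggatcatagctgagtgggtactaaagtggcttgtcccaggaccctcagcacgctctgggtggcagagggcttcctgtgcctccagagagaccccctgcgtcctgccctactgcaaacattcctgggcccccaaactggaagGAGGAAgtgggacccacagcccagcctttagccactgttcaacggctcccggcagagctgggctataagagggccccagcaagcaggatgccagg
Ctsg: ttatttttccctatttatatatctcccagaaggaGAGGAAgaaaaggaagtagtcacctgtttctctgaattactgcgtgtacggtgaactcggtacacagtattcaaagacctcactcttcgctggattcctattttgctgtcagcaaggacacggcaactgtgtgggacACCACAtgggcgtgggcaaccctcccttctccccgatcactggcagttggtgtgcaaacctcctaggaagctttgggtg
Csf3r: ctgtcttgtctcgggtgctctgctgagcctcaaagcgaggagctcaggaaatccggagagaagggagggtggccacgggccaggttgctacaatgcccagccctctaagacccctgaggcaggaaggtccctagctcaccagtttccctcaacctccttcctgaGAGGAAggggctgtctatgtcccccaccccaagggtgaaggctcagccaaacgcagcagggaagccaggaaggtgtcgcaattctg

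GAGGAA occurred in 5 of the 8 windows, which are those of the 4 granule enzyme genes and of Csf3r, against 23.3% of 32851 RefSeq windows of the same length. All of these matches lay on the strand of transcription. The Mpo window held it at -247 and -224 from the start, Ctsg at -216, Prtn3 at -95, Csf3r at -86 and Elane at -85, so that in Prtn3, Csf3r and Elane it lay at nearly the same distance. Prtn3 lies next to Elane on chromosome 10, and how alike these windows are in sequence was not measured. The windows of Cebpa and Irf8 held no GAGGAA. The RUNX-like letters were found only in the Ctsg window, on the other strand at -79, and in 14.0% of all windows. The C/EBP-like letters were in 0 of the 8 windows and in 9.56% of all windows. MYB-like letters were in 7 of the 8 and in 74.2% of all windows. These matches describe letters and not binding, which the arrays did not measure.

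**Figure D1:**
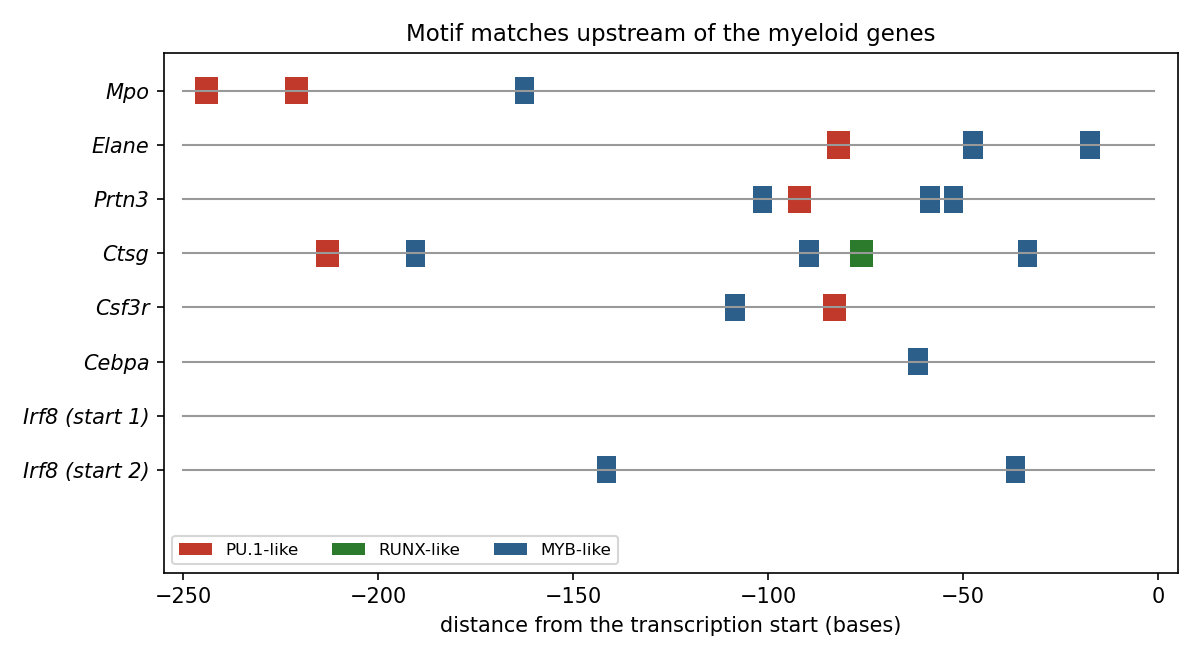
Matches to 3 short motifs in the 250 bases upstream of 8 transcription starts of 7 myeloid genes. The x axis gives the distance from the start in bases, each line is 1 window and each block 1 match. PU.1-like matches are in the windows of Mpo, Elane, Prtn3, Ctsg and Csf3r, and those of Elane, Prtn3 and Csf3r lie between -95 and -80.

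The deposited values are normalized intensities, and their log2 is used below. A probe set's intensity depends on its own binding strength as well as on its transcript, so levels of different genes are not ranked against each other, and each gene is only placed on one side or the other of a threshold taken over all gene-level values, as a guide to how dim it was. The median of these values, a log2 intensity of 6.04 or an intensity of 65.9, also serves as a filter: a gene passed it when it reached that level on at least 1 array, as 11455 genes did (51.6%).

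Among the primary granule enzymes, 3 of 4 were slightly higher in the Pot1a array and Ctsg was level. Prtn3, which encodes proteinase 3, had a log2 intensity of 7.37 in control and 7.43 in Pot1a-transduced LT-HSCs (intensities of 165 and 172), a difference of 0.059. It was the only one of the 4 whose probe set lay above the median of all genes. Mpo, which encodes myeloperoxidase, the enzyme that makes hypochlorous acid in neutrophils, measured 5.60 in control and 5.76 in Pot1a (48.6 and 54.1), a difference of 0.15. Elane, which encodes neutrophil elastase, measured 5.51 and 5.63 (45.5 and 49.6), a difference of 0.12. Both genes stayed under the filter on both arrays. Ctsg, which encodes cathepsin G, measured 5.38 on each array (41.7 and 41.5), a difference of -0.0045, and 96.4% of all genes differed by as much or more. The median difference of the 4 enzymes was 0.092.

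Elane and Prtn3 are direct neighbours on chromosome 10, and their probe sets gave differences of the same sign, 0.12 and 0.059. Of the 3 protein-coding genes on either side of each of the 10 genes, those with a named probe set were compared in the same way. This comparison was chosen after their values had been computed. The 5 measured around Elane, Prtn3 included, were all higher in Pot1a, with differences from 0.022 to 0.21. Ptbp1, Plppr3 and Med16 are among these 5 and are counted again around Prtn3. Among all genes, 46.7% were higher and 50.7% lower. Around Prtn3 4 of 5, Elane included, were higher and 1 was lower (-0.50 to 0.15), and around Mpo 2 of 5 were higher and 3 lower (-0.41 to 0.22). Around Cebpa 3 were higher and 2 lower, around Cebpe 1 and 2, around Csf3r 2 and 4, and around Spi1 and Irf8 each 1 and 5. All 4 measured around Csf1r were higher, where Csf1r itself was lower in Pot1a. Ctsg lies among genes of mast cell proteases and granzymes. All 5 of its measured neighbours were lower, with differences from -0.85 to -0.05, where Ctsg itself differed by -0.0045. These 5 were under the filter on both arrays, and the widest gap was that of Mcpt4, with log2 intensities of 2.83 in control and 1.98 in Pot1a.

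The 2 receptors differed in opposite directions. Csf3r, which encodes the receptor for granulocyte colony-stimulating factor, measured 8.13 in control and 8.21 in Pot1a (280 and 297), a difference of 0.0865. It alone of the 10 genes also passed a filter at the 75th percentile (log2 7.82). Csf1r, which encodes the receptor for macrophage colony-stimulating factor, measured 5.55 in control and 5.18 in Pot1a (46.9 and 36.3), a difference of -0.37 or a level 1.29-fold higher in control. This was the difference furthest from 0 among the 10 genes. Among all genes, 12.4% differed by as much or more, and Csf1r was under the filter on both arrays.

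Each of the 4 transcription factor genes had its higher level in the Pot1a array, and their median difference was 0.15. Spi1, which encodes PU.1, measured 7.15 in control and 7.37 in Pot1a (142 and 165), a difference of 0.22, and passed the filter on both arrays. Cebpa, which encodes the factor needed for the step to granulocyte and monocyte progenitors, measured 5.98 and 6.22 (63.3 and 74.4). Its difference of 0.23 straddled the filter, so that Cebpa was kept only through the Pot1a array, in which it was higher. Cebpe, whose product drives late granulocyte maturation, measured 5.90 and 5.97 (59.5 and 62.9), a difference of 0.078. Irf8, which encodes a factor of the monocyte and dendritic lineages, measured 5.82 and 5.85 (56.6 and 57.6), a difference of 0.026. The second Irf8 probe set was dimmer and differed more, with 4.92 in control and 5.21 in Pot1a, a difference of 0.29. The size of the Irf8 difference thus depended on the probe set, while its sign did not.

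**Figure D2:**
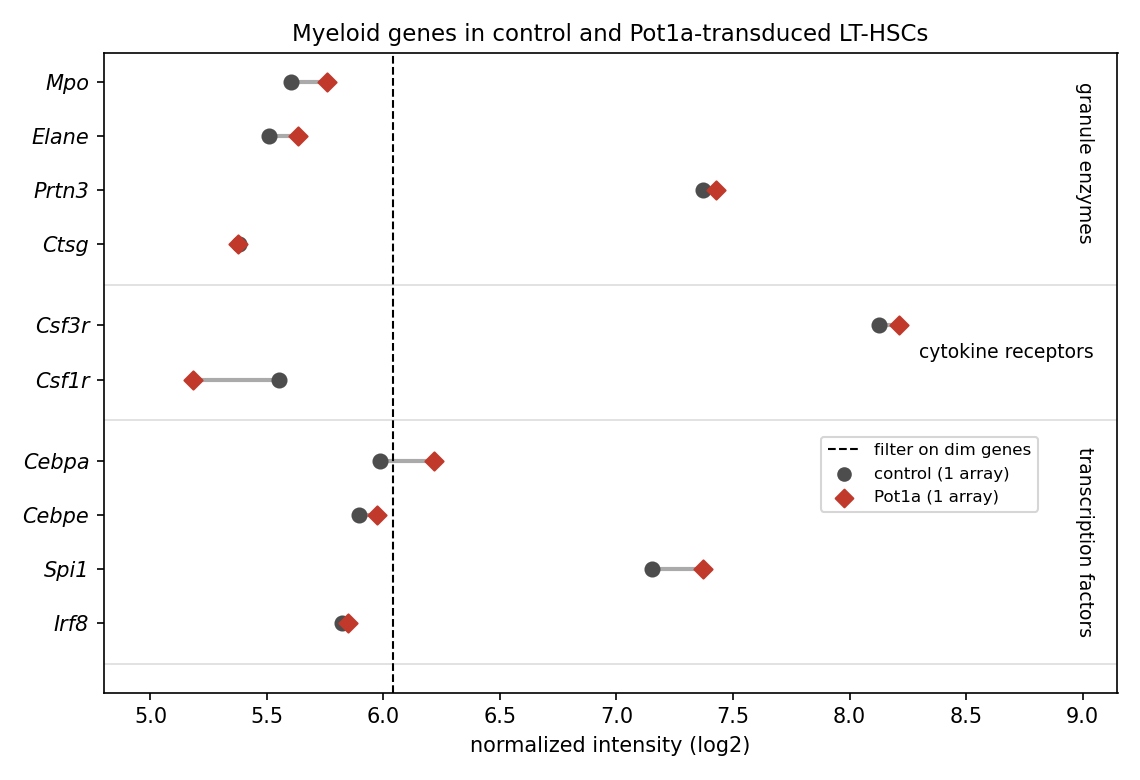
Log2 normalized intensity of the 10 genes, with the control array as grey circles and the Pot1a array as red diamonds (1 array each, no error bars) and the filter at 6.04 as a dashed line. Prtn3, Csf3r and Spi1 lie right of the line on both arrays, Cebpa crosses it, and Csf1r is the gene with the widest gap, toward a lower level in Pot1a.

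Each of the 10 differences was equalled or exceeded in size by at least 12.4% of all genes. Of the 10 genes 8 were higher and 2 lower, where 46.7% of all 22180 genes were higher and 50.7% lower. None of the 10 reached 1.5-fold, as 3.3% of all genes did, or 2-fold, as 0.37% did. Of the 4 genes that passed the filter all were higher, where 50.0% of the genes past it were higher and 48.9% lower. None of these 4 reached 1.5-fold (0.943% of genes past the filter) or 2-fold (0.0349%). Their median difference was 0.15, and it was 0.0865 over Prtn3, Csf3r and Spi1, which passed on both arrays. The median over all genes was -0.0062 and over those past the filter 0.00027. The differences of all genes had an SD of 0.26, and those of the genes past the filter an SD of 0.20.

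Dim probe sets scatter more between arrays, so each difference was also set beside the SD of the differences of genes whose mean log2 level lay within 0.5 of its own. For 7 of the 10 genes the difference was within 1 such SD. The share of all genes within theirs was not computed, so this count has no background beside it. Outside it lay Csf1r, with a difference of -0.37 beside an SD of 0.25, Cebpa, with 0.23 beside 0.22, and Spi1, with 0.22 beside 0.20. Among all genes 12.4% differed by as much as Csf1r or more, 29.3% by as much as Cebpa and 32.2% by as much as Spi1. Mpo, with 0.15, lay inside an SD of 0.24, and Csf3r, with 0.0865, inside an SD of 0.18. For 5 of the 10 genes, namely Prtn3, Ctsg, Csf3r, Cebpe and Irf8, the difference was under 0.1 in either direction. The widest of these 5 was that of Csf3r, and 69.0% of all genes differed by as much or more.

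**Figure D3:**
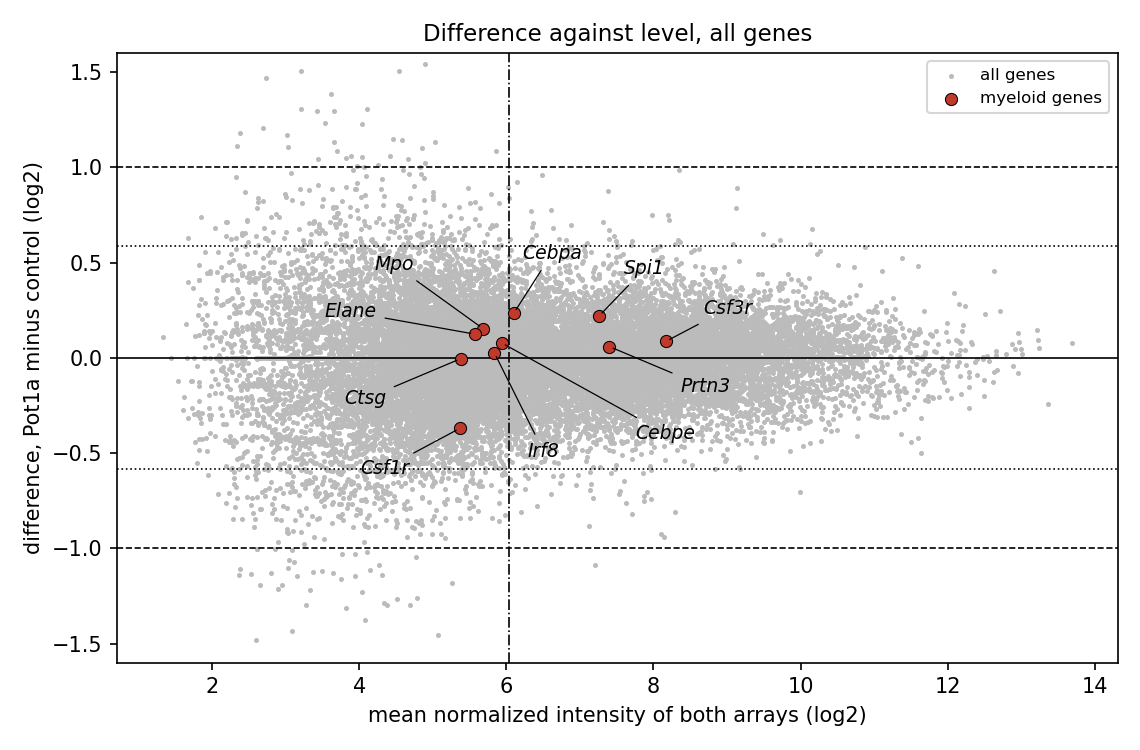
Log2 difference (Pot1a minus control) against mean log2 intensity of both arrays, for all genes in grey and the 10 myeloid genes in red, with lines at 2-fold (dashed), 1.5-fold (dotted) and the filter (vertical). The 10 genes lie within the cloud and inside the 1.5-fold lines, and 6 genes beyond 1.6 in either direction are outside the axis.

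Other genes of the same programs were read from lists of known genes. Of 9 further genes of the primary granule and promyelocyte, 4 were higher and 5 lower, with a median difference of -0.020. Of the 6 past the filter, 3 were higher and 3 lower, and of the 5 past it on both arrays 2 were higher and 3 lower. Serpinb1a, whose product inhibits the proteases that Elane, Prtn3 and Ctsg encode, measured 8.55 in control and 8.46 in Pot1a. Plac8, known as a myeloid progenitor transcript, measured 6.00 and 6.21 and passed only through the Pot1a array, and Cd63, a granule membrane tetraspanin gene, 12.01 and 11.89. All 14 genes of secondary granules and maturing neutrophils were under the filter on both arrays, with log2 intensities from 3.73 to 6.04, and their summed intensity was 451.6 in control and 429.3 in Pot1a. Itgam, the integrin gene of the myeloid marker Mac-1, measured 5.91 and 6.04. Of 12 monocyte and dendritic genes, 5 were higher and 7 lower (median -0.081). Only Cx3cr1, a chemokine receptor gene (6.67 and 6.36), and Cd68, a lysosomal marker (8.61 and 8.76), passed the filter. The summed intensity of the 12 was 906.5 in control and 918.1 in Pot1a, and Cd68 alone gained more than this sum did. Csf1r, the macrophage receptor gene, was lower in Pot1a like Cx3cr1, whereas Cd68 and Irf8 were not.

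Of 15 further myeloid cytokine receptor and signalling genes, 13 had the higher level in Pot1a, 1 was lower and 1 was identical (median difference 0.16), and none reached 1.5-fold. Past the filter 12 of 13 were higher, with a median of 0.16, and 1 of these 12, Il1r1, passed only through the Pot1a array, where it was higher. Of the 12 genes past the filter on both arrays, 11 were higher and 1 was lower (median 0.17). Among all genes 46.7% were higher, and among all those past the filter 50.0%. The differences of all genes past the filter had an SD of 0.20. Il6ra, the interleukin-6 receptor gene, measured 7.52 in control and 7.94 in Pot1a (difference 0.42). Csf2ra, the α chain gene of the granulocyte-macrophage receptor, measured 7.06 and 7.32 (0.25), and Stat5b, a transducer of cytokine signals, 8.55 and 8.79 (0.24). Kit, the stem cell factor receptor gene and part of the sorting gate, measured 11.54 and 11.66. Csf3r, with 0.0865, thus lay below the median of this list. Of 19 further transcription factor genes around PU.1 and C/EBPα, 11 were higher and 8 lower, with a median of 0.049. Past the filter it was 8 and 6 with a median of 0.039, including Gata2 (a difference of 0.32), a factor of stem and progenitor cells, Ikzf1 (a difference of 0.30), which encodes Ikaros, Cebpb (6.57 and 6.36), the factor of emergency granulopoiesis, and Etv6 (11.66 and 11.67). Cebpb was thus lower in Pot1a while Cebpa was higher. Trib2, a pseudokinase gene whose product promotes C/EBPα degradation, was the only one of these past 1.5-fold, higher in Pot1a with 4.73 and 5.32, under the filter on both arrays and named after its values were seen.

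**Figure D4:**
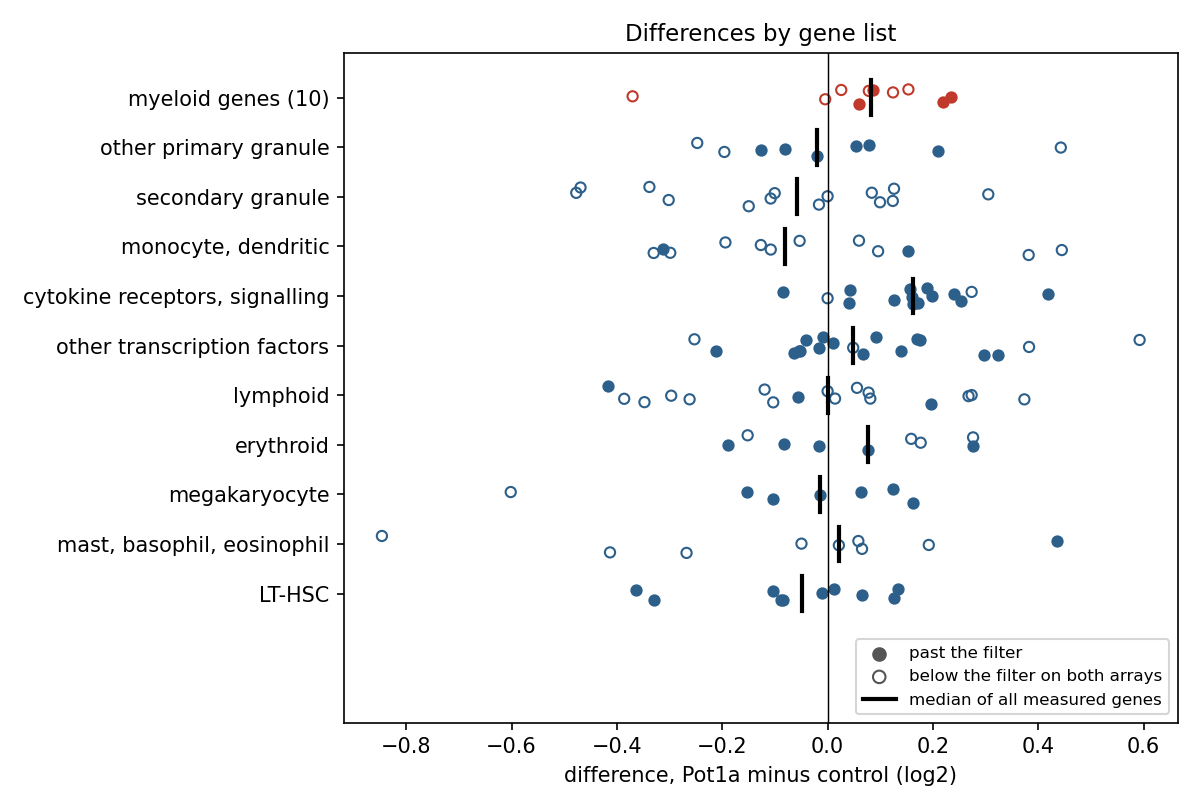
Log2 difference (Pot1a minus control) of each measured gene in 11 lists, with filled points for genes past the filter, open points for genes under it on both arrays and a bar for the median of all measured genes of the list. Vertical scatter within a row carries no value. The median of the 10 myeloid genes is 0.082 and that of the cytokine receptor and signalling genes 0.16, and points of both signs occur in every list.

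The labels were checked on the same arrays. Pot1a measured 8.08 in control and 11.06 in Pot1a, a 7.87-fold difference in the direction of the label. All 10 measured LT-HSC genes passed the filter on both arrays, 4 higher and 6 lower in Pot1a (median -0.048). The LT-HSC genes Ctnnal1, with 8.67 in control and 8.30 in Pot1a, and Procr, with 7.63 and 7.30, differed most, and Slamf1, the gene of CD150 in the gate, measured 8.99 and 8.90. Cd48, whose product the gate excludes, passed the filter too, with 7.59 and 7.84, while the lineage markers Itgam, Ly6g, Cd3e, Cd4 and Cd8a did not. Of 17 lymphoid genes 8 were higher and 8 lower in Pot1a, and 3 passed the filter. These 3 were Cd79b, with 7.20 in control and 6.78 in Pot1a, Notch1, with 8.04 and 8.24, and Ighm, with 7.16 and 7.10. The summed intensity of the 17 was 1043 on both arrays, an equal sum made up of differences in both directions. Of 9 erythroid genes 5 were higher and 4 lower, and of the 5 past the filter 2 were higher and 3 lower (median -0.016). The erythroid sum was 2989 in control and 3216 in Pot1a, and Zfpm1, with 10.46 and 10.74, gained more than the sum did. Epor, with 7.50 and 7.31, and Car2, with 10.07 and 9.99, were lower in Pot1a. Of 7 megakaryocyte genes 3 were higher and 4 lower (median -0.013), 6 passed the filter, and the sum was 3077 in control and 3155 in Pot1a. Selp, with 9.96 and 10.12, gained more than this sum did, and Gp9, with 8.31 and 8.16, was lower. Of 9 genes of mast cells, basophils and eosinophils 5 were higher and 4 lower, and their sum was 322.1 in control and 349.6 in Pot1a. Of these 9 only Gzmb passed the filter, with a log2 intensity of 6.76 in control and 7.20 in Pot1a, and it too gained more than the sum did. No marker had a value of 0. Their part in the differences of the 10 genes was not tested. In RNA from a sorted population, a change in the number of primed cells and a change in RNA per cell cannot be told apart.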

How the data were processed

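Total RNA of 1 control and 1 Pot1a-transduced LT-HSC sample was hybridized to 1 Affymetrix array each. The authors deposited linear, already normalized intensity values for 34365 probe sets, with medians of 53.1 (control) and 52.6 (Pot1a). Log2 of a deposited value came out at 5 decimals, within 0.01 of the last, for 100% of them. The study's methods, written for arrays of aged cells, name RMA with quantile normalization in Expression Console. What was set for the present arrays is not given in the sources used here. No further normalization was applied, and no detection calls were used. The value was the same on both arrays in 980 probe sets (2.85%).

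Genes were named from the platform annotation, in which 23521 probe sets have 1 symbol, 1820 several and 9024 none, and only the first were used. Of these, 23328 were matched by Entrez ID to RefSeq genes of GRCm38.p6, which changed 0 symbols. The 22180 genes were each represented by their brightest probe set by mean, a choice that concerned 1082 of them. The difference was log2 Pot1a minus log2 control. The filter asked for a value no lower than the median gene-level value on at least 1 array. With 1 array per group no p-value or standard error was computed, genes were counted at 2-fold and 1.5-fold, and having 2 arrays limits the precision.

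The 10 genes, the other lists, the motifs and the alternatives were chosen with earlier results of these data known. Besides the 10 genes, the rule for named genes took up to 3 genes past the filter with the largest difference in each list, the gene of highest mean intensity in each list and Pot1a, and the lists of other lineages are given mainly as counts. Slamf1, Cd48, Trib2, Il1r1, the lineage markers and the chromosomal neighbours were added after their values were seen. Listed genes without a single-symbol probe set in the annotation were not analysed here. As alternatives, probe sets of a gene were averaged, the filter was dropped, raised to the 75th percentile or set on the mean of both arrays, and the others were centring on the median of all probe sets, loess correction for the trend with level (fraction 0.3), an offset of 16 added to the intensity, and 1.5-fold. The counting steps were checked on simulated data, with planted differences on bright probe sets only and far wider than those of the 10 genes. The check therefore does not cover small differences or dim genes. The tools were matplotlib 3.10.9, statsmodels 0.14.6, pandas 2.3.3, numpy 2.4.6 and Python 3.11.15.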

Additional observations from a re-analysis of the deposited data

How the results depend on the processing

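With 1 array per group leaving out a replicate was not possible, and no level of noise between replicates is known. No paired analysis was possible because neither group has a second array. The arrays come without detection calls, so which dim genes lie at background is not known, and 6 of the 10 genes were under the filter on both arrays.

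Over the 4 genes past the filter the median difference was 0.153, with 4 higher and 0 lower. Cebpa is 1 of these 4 only through the Pot1a array, where it was higher, and the median was 0.0865 over the 3 genes past the filter on both arrays. Without a filter the median of the 10 genes was 0.0824, with 8 higher and 2 lower. The filter at the 75th percentile left 1 gene, Csf3r, higher by 0.0865. These shifts follow from which genes enter. The other alternatives moved this median by no more than 0.05, and 0 of the 10 genes reached 2-fold, or 1.5-fold without a filter, a setting chosen after the data were seen. Of 40 values of single genes under 4 alternatives, 38 moved by no more than 0.05 in log2. The shifts were larger for Irf8 and Csf1r. Irf8 was 0.158 with its probe sets averaged and Csf1r -0.267 with the offset of 16. Only Ctsg changed sign, to 0.00148 with centring and 0.0289 with the trend correction.

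Medians of lists that changed sign against their value past the filter were as follows. Without a filter the receptors among the 10 genes were at -0.142, the other primary granule genes at -0.0197, the erythroid genes at 0.0772 and the megakaryocyte genes at -0.0135. With a filter at the 75th percentile the other primary granule genes were at -0.0141, the monocyte and dendritic genes at 0.153, the lymphoid genes at 0.196, the erythroid genes at 0.0967, the megakaryocyte genes at -0.0135 and the LT-HSC genes at 1e-05. Averaged probe sets put the megakaryocyte genes at -0.0135, and the trend correction put the erythroid genes at 0.00689. Changes of filter or probe set alter which genes are counted, and the cause of the sign change of the erythroid median under trend correction was not tested. The secondary granule genes had no value past the filter.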
